A study of Mus musculus with 10 samples.

Results

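Open chromatin at 9 genes of interleukin-6 (IL-6) family signalling and its feedback was measured in mouse Th17 cells by ATAC-seq, in which a transposase cuts and tags accessible DNA. A site was assigned to a gene when that gene's body was the nearest protein-coding gene body on GRCm38, within 50 kb, with a distance of 0 for a site inside it. This gave 76 of the 39657 sites in the deposited table, each 201 bp wide, and all 9 genes had at least 1 site. Jak1 had 17 sites, Il6ra and Lif had 11 each, Il6st had 10, Jak2 had 7, Socs1, Socs2 and Socs3 had 6 each, and Cish had 2. Of the 76 sites, 36 lay inside a gene body and 40 lay outside one. Of the 70 sites of the 8 genes whose start was known here, all but Socs2, 7 had their centre within 1 kb of it. Nearness alone does not tie a site to the gene's control.

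The cells came from naive CD4+ T cells of spleen and lymph nodes, cultured for 3 days with anti-CD3, anti-CD28, IL-6, TGFβ and anti-IFNγ. KO cells came from PDHfl/fl CD4 Cre+ mice, and WT cells came from PDHfl/fl mice, so the controls carry the floxed allele without Cre (the sample titles spell it PHD-fl/fl). The floxed subunit gene is not named, so its loss could not be checked here. Pyruvate dehydrogenase (PDH) feeds pyruvate carbon into acetyl-CoA in mitochondria, and the Cd4 regulatory sequence that drives this Cre acts in T cells from the thymus onwards. The 4 groups were KO with 10 mM sodium acetate (n = 2), KO untreated (n = 3), WT with 10 mM sodium acetate (n = 2) and WT untreated (n = 3). The age and sex of the mice are not given in the sources used here. The labels do not tie replicates to individual mice or cultures, so p-values cover only the spread between libraries, which may be technical.

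IL-6 binds its receptor chain, encoded by Il6ra, and the pair engages gp130, encoded by Il6st, the signalling chain shared by the IL-6 family. Janus kinases bound to gp130, among them JAK1 and JAK2, then phosphorylate STAT3, which drives the Th17 programme together with TGFβ. Lif encodes another cytokine that signals through gp130. The SOCS proteins and CIS, encoded by Cish, are induced by STAT factors and feed back on cytokine receptors and Janus kinases, and SOCS3 is the main brake on gp130.

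Sequence just before the annotated gene starts was available for 8 of the 9 genes, all but Socs2, in RefSeq's promoter table on GRCm38.p6. Sites of the table covered part of the 250 bases before the start at 4 of them, with 192 bases covered at Jak1, 132 at Il6st, 59 at Lif and 23 at Socs3. The first 3 are shown because the sites at these starts are described below. Each sequence runs 5′ to 3′ on the gene's strand and ends at the base before the start, and capitals mark the bases that lie inside a site. The Jak1 window is chr4:101265224-101265473 (minus strand), the Il6st window is chr13:112463820-112464069 (plus strand) and the Lif window is chr11:4257318-4257567 (plus strand).
Jak1: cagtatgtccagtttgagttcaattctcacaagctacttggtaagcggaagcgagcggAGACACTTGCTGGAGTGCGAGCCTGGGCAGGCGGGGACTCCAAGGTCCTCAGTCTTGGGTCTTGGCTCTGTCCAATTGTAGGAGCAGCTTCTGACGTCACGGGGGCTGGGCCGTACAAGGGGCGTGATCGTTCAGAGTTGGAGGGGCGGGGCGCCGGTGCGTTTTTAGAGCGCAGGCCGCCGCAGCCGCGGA
Il6st: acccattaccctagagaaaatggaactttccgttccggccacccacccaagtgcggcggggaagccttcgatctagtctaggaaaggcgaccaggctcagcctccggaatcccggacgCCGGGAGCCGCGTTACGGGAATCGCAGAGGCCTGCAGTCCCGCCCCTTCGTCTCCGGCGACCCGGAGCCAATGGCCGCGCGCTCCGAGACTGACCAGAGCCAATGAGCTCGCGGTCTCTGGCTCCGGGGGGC
Lif: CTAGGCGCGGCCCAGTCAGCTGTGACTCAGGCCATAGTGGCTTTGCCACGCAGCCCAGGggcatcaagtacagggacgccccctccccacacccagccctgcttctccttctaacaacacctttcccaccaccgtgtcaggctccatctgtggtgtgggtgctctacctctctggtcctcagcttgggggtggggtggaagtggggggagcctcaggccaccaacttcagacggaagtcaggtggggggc

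Because the feedback genes are textbook STAT targets, the 300-base windows (250 bases before and 50 after each start) were searched for TTCNNNGAA, the spaced palindrome bound by STAT factors, which reads the same on both strands. It occurred in 2 of the 8 windows, at Cish and Socs3, and in 2726 of 32851 windows (8.30%) over all genes. The matches are shown in capitals, for Cish at chr9:107296654-107296683 (plus strand) and for Socs3 at chr11:117969507-117969525 (minus strand).
Cish: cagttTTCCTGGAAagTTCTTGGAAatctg
Socs3: cagccTTCTTAGAAgggag
The Cish stretch holds 2 matches at the start itself, where the table has no site, and the nearest Cish site lies 2.098 kb upstream. The Socs3 match lies 154 bases before the start and outside the site that covers that start. A match is a description of these letters and no evidence of binding.

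The deposited values are signal, the whole reads of a site over a factor set for its library. Libraries held 3500172 to 13356560 reads over all sites, and reads at a single member site ranged from 4 to 1404. The site names mark them as differential sites, so the table may have been chosen on these samples, and its counts of untreated KO against WT are then not independent evidence. In that comparison 39152 of the 39657 sites had an unadjusted p under 0.05 in limma, against 914 in KO against WT with acetate. The acetate comparisons within KO and within WT and the interaction reuse these untreated libraries, so the same limit holds for them. Library names begin with ATAC1 for the 3 KO untreated libraries and for WT untreated 1 and 2, and with ATAC2 for WT untreated 4 and all 4 acetate libraries. Among markers of cell types, all 6 Th17 marker genes had sites, 36 in all, and neither CD8 T cell marker had a site. Of 21900 protein-coding genes 12580 had a site, and the table may hold chosen sites only. Having or lacking a site therefore cannot check the cell label. Of 8 B cell markers 4 had no site, Ms4a1, Cd79a and Cd79b among them, and the 19 sites of the other 4 summed to 232 to 273 ppm of a library's signal in KO untreated. The B cell sites summed to 172 to 191 ppm in KO with acetate, 177 to 181 in WT with acetate and 155 to 189 in WT untreated. Of 6 myeloid markers Csf1r, Lyz2, Cebpa and Cd68 had no site, and the 5 sites of the other 2 summed to 146 to 161 ppm in KO with acetate, 156 to 167 in KO untreated, 163 to 168 in WT with acetate and 148 to 171 in WT untreated. Signal at mitochondrial sites was 1.18 to 2.01% of the total in KO untreated and 0.201 to 0.658% in the other groups.

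Cish had the highest mean signal per site in each of the 4 groups, and the order below it differed between groups. In untreated WT cells it stood at 729 ± 99.5 per site (SD, n = 3), above Socs1 in every library. Socs1 followed at 445 ± 67.5, Socs3 at 377 ± 43.7, Lif at 343 ± 45.1, Il6st at 309.6 ± 36.5 and Il6ra at 278 ± 50.1. Jak1 stood at 241 ± 27.1, Socs2 at 210.0 ± 27.4 and Jak2 at 207 ± 20.2. From Socs1 down to Jak2, each gene's libraries overlapped those of the next gene in this order. The mean per site in untreated KO, as a ratio to untreated WT, ran from 0.470 at Lif and 0.518 at Il6ra to 0.623 at Cish. With acetate in both genotypes the same ratio ran from 0.795 at Cish to 0.899 at Socs2.

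The first comparison asks how loss of PDH changes chromatin at these genes in untreated Th17 cells. As deposited, 74 of the 76 sites were lower in KO, against 89.6% of all sites, and 2 were higher, against 9.07% of all sites (limma on log2 values, Benjamini-Hochberg adjusted p under 0.05). The median log2 difference was -0.92 over the member sites and -0.84 over all sites. Libraries of KO and WT did not overlap at 70 of the 76 sites, against 89.5% of all sites. Every gene except Socs2 had all its sites lower. With only the ATAC1 libraries, which are 3 of KO and 2 of WT, 74 member sites were lower, against 87.6% of all sites, and 2 were higher, against 8.87%.

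Most of these calls, though not most directions, depended on the authors' factor per library. Each of the 3 other scalings brings the libraries to a similar level over all sites. A shift shared by most sites is thereby largely removed in advance, so the lower counts cannot tell whether that shift is real. With median-of-ratios factors 6 member sites were lower, against 3.34% of all sites, and 2 were higher, against 9.63%. With total signal 11 were lower, against 5.74%, and 2 were higher, against 9.38%. With cyclic loess, which evens out the libraries at each signal level, 6 were lower, against 2.41% of all sites, and 2 were higher, against 9.35%. The median over all sites was then 0.00 and the member median was -0.10, with 26 of the 76 differences above 0. In their direction 8 sites passed the test with the deposited factors and all 3 of these scalings, against 11.3% of all sites: 2 at Lif, 2 at Jak1, 1 at Il6ra and 3 at Socs2. Values relative to the median of all sites are therefore given beside the deposited ones.

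At the receptor genes, Il6ra had a median difference of -0.89, which is -0.06 relative to all sites. Its site inside the gene at 3:89875907-89876107 had 173, 146 and 182 in KO and 532, 431 and 332 in WT. The KO libraries were all below the WT ones, and the site fell by 1.34 ± 0.21 on the log2 scale (SE, adjusted p = 5.47e-08), with -0.55 ± 0.17 after cyclic loess (adjusted p = 0.0459) and -1.52 within ATAC1. The brightest Il6ra site, inside the gene near its start at 3:89912756-89912956, had 342, 345 and 459 in KO and 784, 569.6 and 650.1 in WT. Its difference of -0.81 ± 0.20 (adjusted p = 0.000162) was close to that of all sites and came to -0.08 with cyclic loess.

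Il6st, which encodes gp130, moved with the table: its median of -0.80 was 0.04 relative to all sites. The site over its start at 13:112463938-112464138, which covers the capitals of the printed Il6st sequence, had 277, 315 and 303 in KO and 554, 419 and 594 in WT. It fell by 0.79 ± 0.20 (adjusted p = 0.000275), and after cyclic loess the difference was -0.04 (adjusted p = 0.920). Upstream of the gene at 13:112427595-112427795, 36.3 kb from the gene body, signal was 162, 145 and 205 in KO and 373, 300.4 and 346 in WT. It was lower in KO and had the smallest p of the Il6st sites (adjusted p = 2.72e-05), and it was not called with cyclic loess (-0.17, adjusted p = 0.652).

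Lif, the gp130 cytokine gene, had the lowest median of the 9 genes, -1.07, which is -0.24 relative to all sites. Its site inside the gene at 11:4261207-4261407 had 191, 208 and 261 in KO and 743, 677 and 504 in WT. Each KO library was below each WT library, and the site fell by 1.53 ± 0.20 (adjusted p = 2.21e-10) as deposited and by 0.80 ± 0.16 with cyclic loess (adjusted p = 0.00124). A distal site 25.4 kb beyond the gene body at 11:4297930-4298130 had 58.7, 91.5 and 81.6 in KO and 241, 232 and 177 in WT, and fell by 1.49 ± 0.22 (adjusted p = 1.40e-08) or by 0.63 ± 0.19 with cyclic loess (adjusted p = 0.0307). The site just before the start, 11:4257176-4257376, which covers the capitals of the printed Lif sequence, had 12.6, 25.2 and 16.6 in KO and 84.9, 80.4 and 31.0 in WT. This site ends 192 bp before the start and does not cover it, and it is called the Lif start below for short. The WT library with 31.0 was WT untreated 4, which is in ATAC2 with no untreated KO library beside it. The difference at that start was -1.72 ± 0.29 (adjusted p = 7.73e-07), but -0.80 ± 0.32 with cyclic loess did not pass (adjusted p = 0.153). The brightest Lif site, at 11:4289345-4289545, had 417, 480.1 and 576 in KO and 920.3, 689 and 939 in WT, a difference of -0.79 ± 0.19 (adjusted p = 0.000128) that came to -0.10 with cyclic loess.

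**Figure D1:**
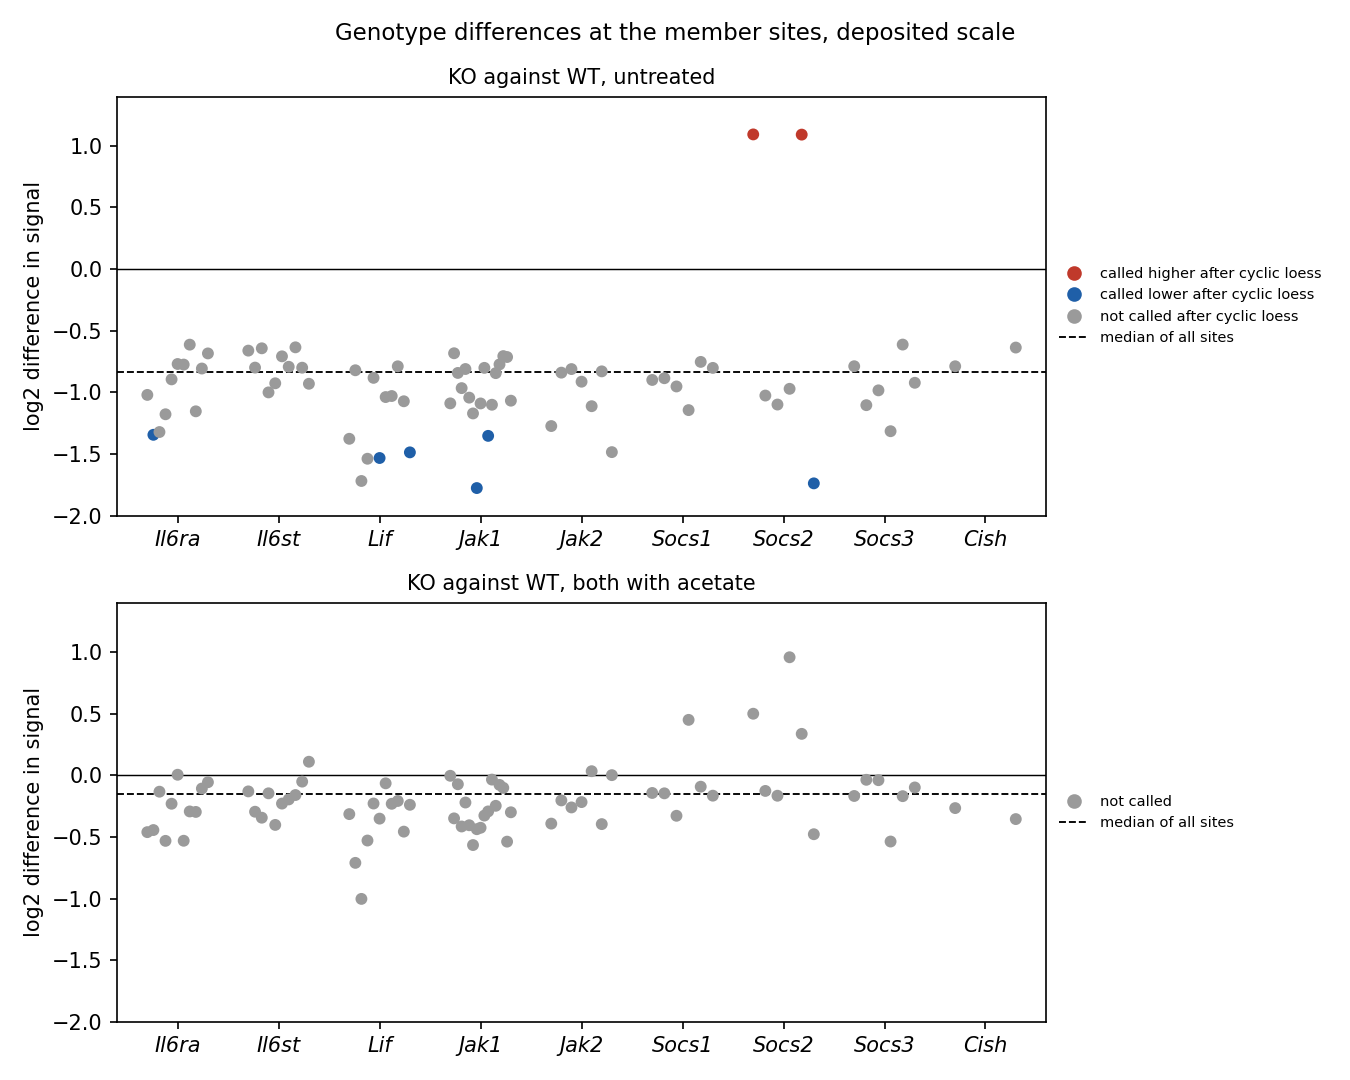
Log2 difference in signal (vertical axis) at each of the 76 sites, grouped by gene along the horizontal axis, for KO against WT untreated (top) and KO against WT with acetate (bottom); dashed lines mark the median of all sites, -0.84 and -0.15. In the upper panel 2 Socs2 sites stand above 0 and the other sites lie below it, and colours mark the 8 sites called after cyclic loess; in the lower panel no site was called.

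The kinase genes differed among their own sites. Jak1, which encodes the kinase most used by gp130, had a median of -0.97 over 17 sites (-0.13 relative to all sites). Inside the gene at 4:101239342-101239542, signal was 31.3, 29.0 and 22.5 in KO and 132, 112 and 59.7 in WT. This site fell by 1.78 ± 0.26 (adjusted p = 8.60e-09), by 0.85 ± 0.26 with cyclic loess (adjusted p = 0.0379) and came to -2.11 within ATAC1. A second intragenic site at 4:101250356-101250556 had 95.4, 94.3 and 116 in KO and 286, 236 and 262 in WT, and fell by 1.35 ± 0.21 (adjusted p = 8.16e-08) or by 0.51 ± 0.13 with cyclic loess (adjusted p = 0.0117). At the Jak1 start, 4:101265215-101265415, which covers the capitals of the printed Jak1 sequence, signal was 328, 424 and 471 in KO and 730.5, 559.6 and 803 in WT. The difference there was -0.77 ± 0.19 (adjusted p = 0.000214), close to that of all sites, and -0.06 with cyclic loess.

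Jak2, the other kinase gene, had a median of -0.91, and none of its 7 sites passed with cyclic loess. The brightest, at 19:29253849-29254049, had 210.0, 243 and 279 in KO and 487, 418 and 469.9 in WT, a fall of 0.91 ± 0.20 (adjusted p = 5.97e-05) that was not called with cyclic loess (-0.13, adjusted p = 0.672). The faint site at 19:29279871-29280071 had 7.13, 9.34 and 14.2 in KO and 28.7, 24.1 and 36.5 in WT, and fell by 1.48 ± 0.34 (adjusted p = 8.63e-05). It held 10 to 13 reads in each KO library, and with cyclic loess its difference of -0.62 did not pass (adjusted p = 0.290).

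Socs2, which encodes a brake on growth hormone signalling, had sites called in both directions, unlike the other 8 genes in this comparison. On the low-coordinate side, 16.1 kb from the gene body at 10:95367597-95367797, signal was 66.9, 67.3 and 69.8 in KO and 35.0, 33.2 and 26.5 in WT. On the other side, 21.3 kb from the body at 10:95438655-95438855, it was 105, 105 and 116 in KO and 49.9, 51.2 and 49.8 in WT. All KO libraries were above all WT libraries at both sites. Neither is among the 62 member sites left by a first-quartile filter on signal or the 52 within 10 kb, all of which were called lower. With that filter 28166 of 29743 sites were lower and 1250 higher. The site at 16.1 kb rose by 1.09 ± 0.32 (adjusted p = 0.00111) and the site at 21.3 kb rose by 1.09 ± 0.27 (adjusted p = 0.000222). With cyclic loess the rises were 1.97 ± 0.23 and 2.02 ± 0.22, and within ATAC1 as deposited they were 0.98 and 1.08. Farther out on that side, 25.1 kb from the body, 10:95442432-95442632 had 58.7, 60.7 and 69.8 in KO and 277, 232 and 148 in WT and fell by 1.74 ± 0.23 (adjusted p = 2.70e-10), or by 0.87 ± 0.19 with cyclic loess (adjusted p = 0.00269). The brightest Socs2 site, inside the gene at 10:95416965-95417165, had 332, 309 and 357 in KO and 778, 561 and 712 in WT, a difference of -1.03 ± 0.20 (adjusted p = 7.60e-06) that was not called with cyclic loess (-0.28). The same untreated KO libraries had the higher mitochondrial and B cell marker shares given above, and the part of these in the Socs2 rises was not tested.

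At the other feedback genes no site passed with cyclic loess. Socs1 encodes an inhibitor that binds Janus kinases directly, and its brightest site at 16:10772197-10772397, 11.4 kb from the gene body, had 464, 524 and 534 in KO and 1126, 921 and 909.9 in WT. It fell by 0.95 ± 0.18 (adjusted p = 5.32e-06) and came to -0.28 with cyclic loess (adjusted p = 0.154). The Socs3 start at 11:117969189-117969389 was the brightest of all 76 sites, with 749, 899 and 871 in KO and 1340, 1109 and 1413 in WT. Its fall of 0.61 ± 0.17 (adjusted p = 0.000719) was the smallest of the member sites called lower, and with cyclic loess the difference was -0.01. Just beyond the Socs3 body at 11:117965113-117965313, signal was 43.9, 63.5 and 54.4 in KO and 149.8, 125 and 129 in WT, a difference of -1.31 ± 0.24 (adjusted p = 2.13e-06) and of -0.41 with cyclic loess (adjusted p = 0.231). The 2 Cish sites had 214, 222 and 273 in KO and 511, 359 and 367 in WT at 9:107294361-107294561, and 593, 719 and 706 in KO and 1177, 994 and 969 in WT at 9:107312929-107313129. Their differences were -0.79 ± 0.21 and -0.64 ± 0.18 as deposited and lay at 0.02 with cyclic loess.

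**Figure D2:**
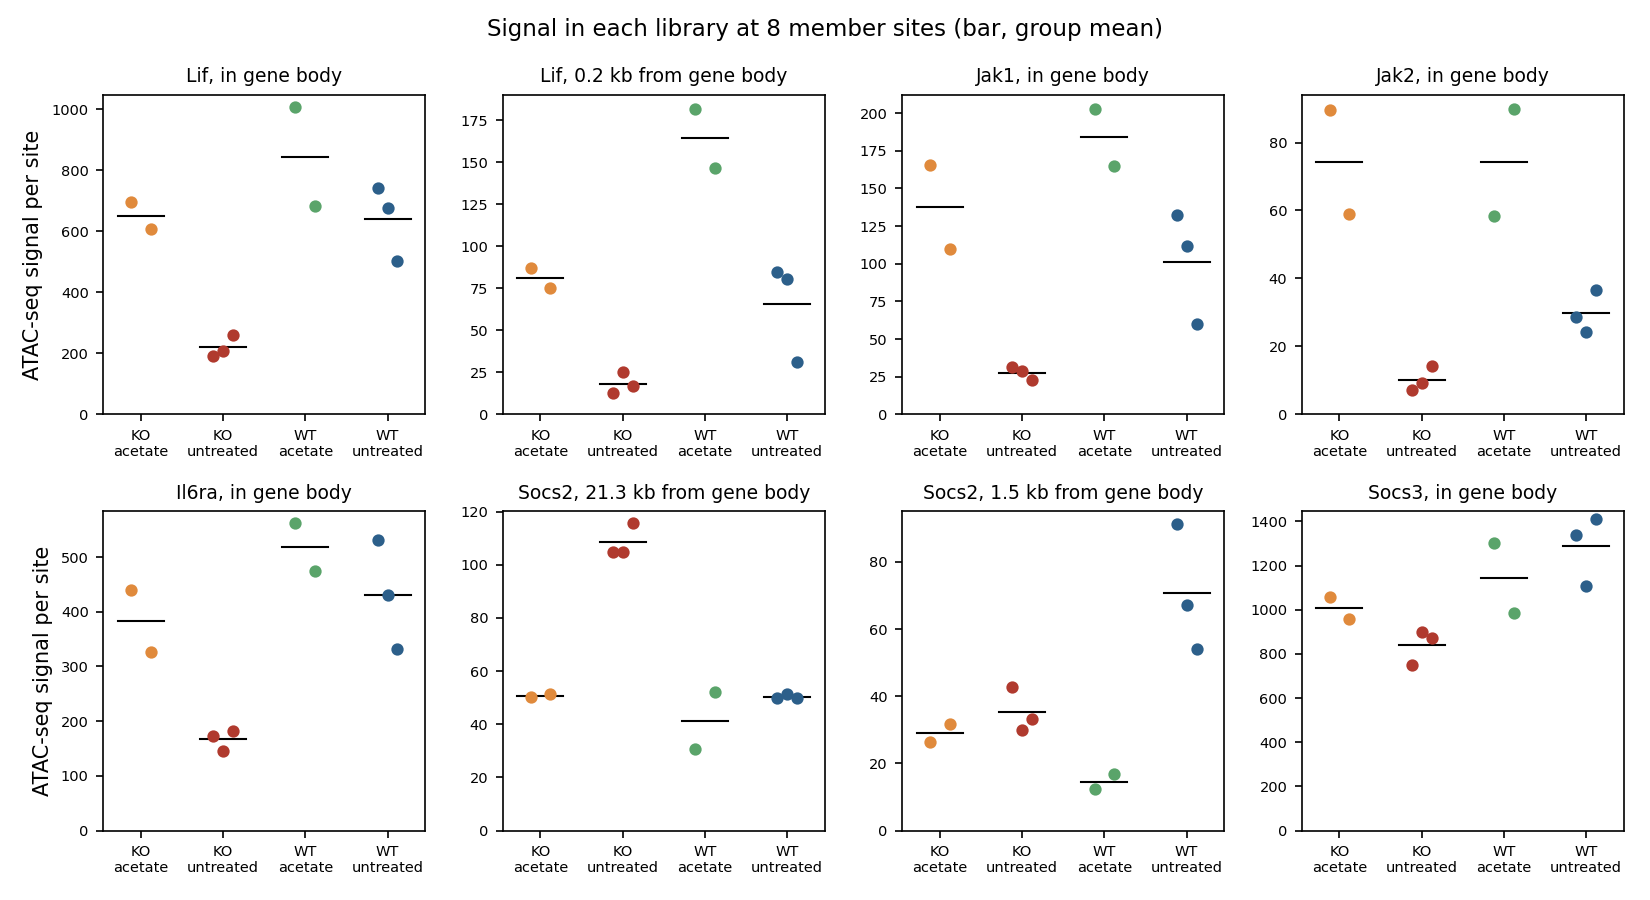
Signal per site (vertical axis, linear, from 0) in each of the 10 libraries at 8 of the sites described in the text, with groups along the horizontal axis; points are libraries and bars are group means. KO untreated is the lowest group at the Lif, Jak1, Jak2, Il6ra and Socs3 sites shown, and it is the highest group at the Socs2 site 21.3 kb from the gene body.

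The second comparison asks whether KO and WT cells differ when both were given acetate. None of the 76 sites was called, against 0.0227% of all sites (9 sites) called in either direction, and 6 member sites had an unadjusted p under 0.05 in limma, against 2.3% of all sites. The member median was -0.23 and that of all sites was -0.15, with 68 member differences below 0 and 8 above. Groups of 2 libraries against 2 limit what could be called here. The differences ran from -1.002 ± 0.36 at the Lif start, 11:4257176-4257376, to 0.96 ± 0.40 at a Socs2 site 1.51 kb from the gene body, 10:95418835-95419035. The Lif start had 87.0 and 75.4 in KO with acetate and 182 and 147 in WT with acetate, and these did not overlap (adjusted p = 0.993). The Socs2 site had 26.4 and 31.7 in KO with acetate and 12.3 and 16.8 in WT with acetate (adjusted p = 0.993). At the Socs2 sites that rose in untreated KO, signal with acetate was 50.3 and 51.3 in KO and 30.8 and 52.0 in WT at 21.3 kb, and 34.1 and 30.2 in KO and 24.6 and 20.4 in WT at 16.1 kb.

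The third comparison is of acetate in cells without PDH. As deposited, 42 of the 76 sites were higher with acetate than without in KO, against 54.6% of all sites, and 2 were lower, against 5.94% of all sites. The member median was 0.60 and that of all sites was 0.61. This comparison and that of untreated KO against WT share the 3 untreated KO libraries. With cyclic loess 11 member sites were higher, against 11.5% of all sites, and 14 were lower, against 16.7%, and the member median was -0.03. In all, 13 sites passed in 1 direction with the deposited factors and the 3 other scalings, against 16.4% of all sites. All untreated KO libraries are in ATAC1 and all acetate libraries in ATAC2, so no value within a prefix can be had. In a fit with the prefix as a term, added after seeing the data and estimated from WT untreated alone (libraries 1 and 2 against 4), 29 member sites were higher, against 27.3% of all sites, and none was lower, against 2.53%.

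Lif had the highest median, 1.17, 0.57 above that of all sites, with 9 of its 11 sites called higher as deposited and 6 with cyclic loess. The Lif site inside the gene at 11:4261207-4261407 had 695 and 606 with acetate and 191, 208 and 261 without, a rise of 1.57 ± 0.22 (adjusted p = 2.06e-09) or of 1.05 ± 0.18 with cyclic loess (adjusted p = 0.000325). At the Lif start, 11:4257176-4257376, signal was 87.0 and 75.4 with acetate and 12.6, 25.2 and 16.6 without, and the rise was 2.15 ± 0.33 (adjusted p = 3.92e-08) or 1.38 ± 0.36 with cyclic loess (adjusted p = 0.00791). No acetate library overlapped an untreated one at either site. With the prefix as a term the rises were 2.06 (adjusted p = 2.96e-07) inside the gene and 3.54 (adjusted p = 1.54e-10) at the start.

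The largest rise at the member sites was in Jak2 at 19:29279871-29280071, where signal was 89.5 and 58.8 with acetate and 7.13, 9.34 and 14.2 without. It came to 2.76 ± 0.38 (adjusted p = 9.65e-10) and to 1.99 ± 0.34 with cyclic loess (adjusted p = 0.000385). The Jak1 site at 4:101239342-101239542 had 165 and 110.1 with acetate and 31.3, 29.0 and 22.5 without, a rise of 2.26 ± 0.29 (adjusted p = 4.87e-11) or of 1.52 ± 0.29 with cyclic loess (adjusted p = 0.000880). With the prefix as a term the rises were 2.31 (adjusted p = 0.000891) at Jak2 and 3.28 (adjusted p = 4.21e-11) at Jak1. These 2 kinase sites and the 2 Lif sites above kept their call without each library in turn.

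At the receptor genes 8 of 11 Il6ra sites and 4 of 10 Il6st sites were called higher as deposited. With cyclic loess 1 Il6ra site was higher and 2 were lower, and 1 Il6st site was higher and 3 were lower. The Il6ra site at 3:89875907-89876107 had 441 and 327 with acetate and 173, 146 and 182 without, a rise of 1.19 ± 0.23 (adjusted p = 9.60e-06) or of 0.59 ± 0.19 with cyclic loess (adjusted p = 0.0281). The Il6st start rose by 0.77 ± 0.22 (adjusted p = 0.00245), to 523 and 493 with acetate against 277, 315 and 303 without, and its 0.23 with cyclic loess did not pass (adjusted p = 0.228). The call at the Il6st start was lost without KO acetate 1 (0.73, adjusted p = 0.0503) and with the prefix as a term, 0.47 (adjusted p = 0.322), while Il6ra then had 1.72 (adjusted p = 6.28e-05).

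The lowest medians were at Socs2, 0.04, and Cish, 0.05, which are -0.57 and -0.55 relative to all sites. Both Socs2 sites that were higher in untreated KO than in WT were lower with acetate in KO. The site at 21.3 kb, 10:95438655-95438855, had 50.3 and 51.3 with acetate and 105, 105 and 116 without, and fell by 1.08 ± 0.30 (adjusted p = 0.00166). The site at 16.1 kb, 10:95367597-95367797, had 34.1 and 30.2 with acetate and 66.9, 67.3 and 69.8 without, and fell by 1.06 ± 0.35 (adjusted p = 0.00762), a call that was lost without KO acetate 3 (-0.97, adjusted p = 0.0653). With the prefix as a term neither fall was called, at -1.05 (adjusted p = 0.0728) and -0.71 (adjusted p = 0.329). The 2 Cish sites had 300.1 and 214 with acetate and 214, 222 and 273 without at 9:107294361-107294561, and 775 and 581 with acetate and 593, 719 and 706 without at 9:107312929-107313129. Their libraries overlapped, the deposited differences of 0.11 and 0.00 were not called, and with cyclic loess they were called lower, -0.50 (adjusted p = 0.0285) and -0.41 (adjusted p = 0.0263). The count of 44 calls in KO came to 26 without KO acetate 1 and to between 32 and 46 without any other library. Over all sites, 11026 were higher and 1799 lower without KO acetate 1, against 21657 and 2357 with every library.

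**Figure D3:**
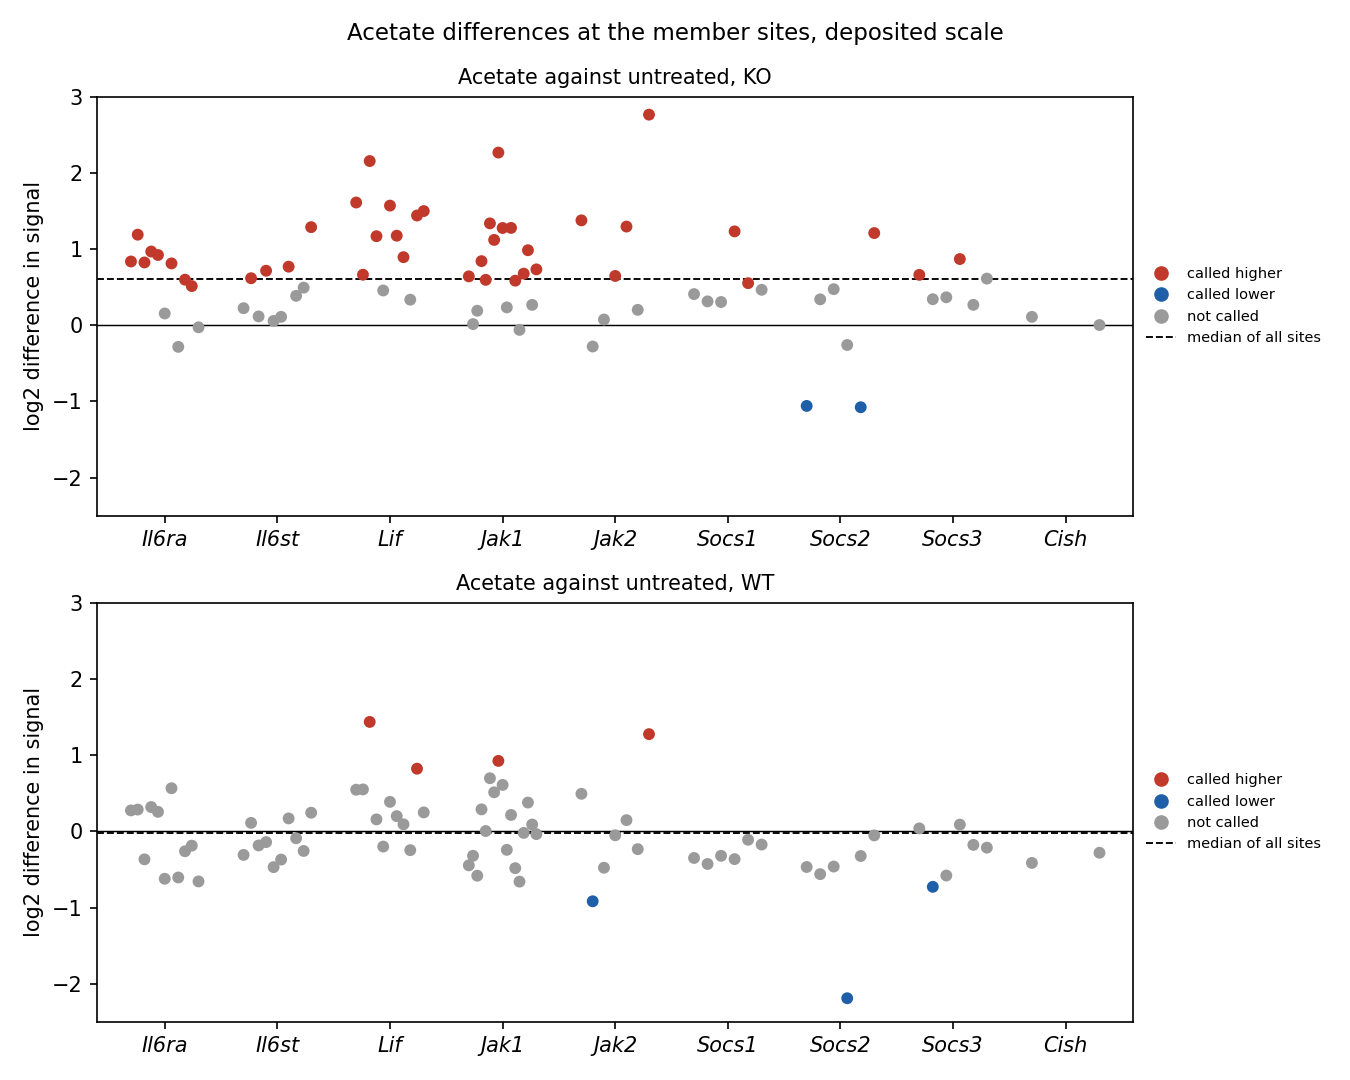
Log2 difference in signal (vertical axis) at each of the 76 sites by gene (horizontal axis) for acetate against untreated in KO (top) and in WT (bottom), coloured by the call on the deposited values; dashed lines mark the median of all sites, 0.61 and -0.03. In KO 42 sites were called higher and 2 Socs2 sites lower, and in WT 4 were called higher and 3 lower.

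The fourth comparison asks what acetate does in cells that have PDH. In WT, 4 of the 76 sites were higher with acetate, against 2.91% of all sites, and 3 were lower, against 3.02%. The member median was -0.16 and that of all sites was -0.03. With cyclic loess 5 were higher, against 4.43% of all sites, and 5 lower, against 4.07%. Of the 7 calls, 6 held with all 3 other scalings, which is 6 of the 76 sites against 4.96% of all sites. Over all sites, 1155 were called higher and 1199 lower as deposited, and 1966 of these calls held with all 3. The sites beyond the 3 of smallest p were added after their values were seen.

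Lif held 2 of the 4 rises. At the Lif start, 11:4257176-4257376, signal was 182 and 147 with acetate and 84.9, 80.4 and 31.0 without, with no overlap and a rise of 1.44 ± 0.33 (adjusted p = 0.00215), or 2.36 within ATAC2. Without WT acetate 1 the rise of 1.28 was not called (adjusted p = 0.140). The distal Lif site at 11:4296775-4296975, 24.3 kb beyond the gene body, had 382 and 287 with acetate and 202, 222 and 145 without, a rise of 0.82 ± 0.24 (adjusted p = 0.0240), or 1.19 within ATAC2. That call was lost without either WT acetate library, WT untreated 1 or WT untreated 4, with rises between 0.62 and 1.03 and adjusted p between 0.0520 and 0.460.

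The kinase genes gave the other rises and 1 fall. Jak2 at 19:29279871-29280071 had 58.5 and 89.9 with acetate and 28.7, 24.1 and 36.5 without, a rise of 1.28 ± 0.38 (adjusted p = 0.0255) that was 0.97 within ATAC2 and not called there (adjusted p = 0.0777). It was lost without WT untreated 1 or 2 or either WT acetate library, with rises between 0.97 and 1.58 and adjusted p between 0.0825 and 0.389. Jak1 at 4:101239342-101239542 had 203 and 165 with acetate and 132, 112 and 59.7 without, a rise of 0.92 ± 0.29 (adjusted p = 0.0327), or 1.60 within ATAC2. Its call was lost with median-of-ratios factors (adjusted p = 0.0655) and total signal (adjusted p = 0.0748), and without KO untreated 1 or 3, WT untreated 4 or either WT acetate library, with rises between 0.59 and 1.07 and adjusted p between 0.0567 and 0.415. Upstream of Jak2 at 19:29210041-29210241, 41.6 kb from the body, acetate libraries had 80.0 and 104 against 209, 162 and 154 in untreated ones, a fall of 0.92 ± 0.26 (adjusted p = 0.0184), and -0.75 within ATAC2 (adjusted p = 0.148). That fall was not called without WT untreated 1 or either WT acetate library, with differences between -1.10 and -0.73 and adjusted p between 0.0566 and 0.387.

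The other 2 falls were at feedback genes. Socs2 at 10:95418835-95419035, 1.51 kb from the gene body, had 12.3 and 16.8 with acetate and 91.2, 67.3 and 54.2 without, and fell by 2.19 ± 0.36 (adjusted p = 1.28e-05), or by 1.84 within ATAC2 (adjusted p = 0.00768). It was the call in WT that held without each library in turn, although WT acetate 1 held 4 reads there and WT acetate 2 held 24. Socs3 at 11:117952275-117952475, 13.6 kb from the gene body, had 265 and 243 with acetate and 499, 362 and 411 without, and fell by 0.73 ± 0.24 (adjusted p = 0.0428), or -0.70 within ATAC2 (adjusted p = 0.115). It kept its call only without WT untreated 2 or WT untreated 4, and in the other 8 fits the differences lay between -0.79 and -0.60 with adjusted p between 0.0526 and 0.289. The count of 7 calls in WT came to 3 without WT untreated 1, 1 without WT acetate 1 and 2 without WT acetate 2. Over all sites the higher and lower calls were then 628 and 305, 132 and 154, and 335 and 567. With every library they were 1155 and 1199. Within ATAC2, where WT untreated 4 is the single untreated library, 8 sites were higher, against 5.63% of all sites, and 1 was lower, against 1.38%.

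**Figure D4:**
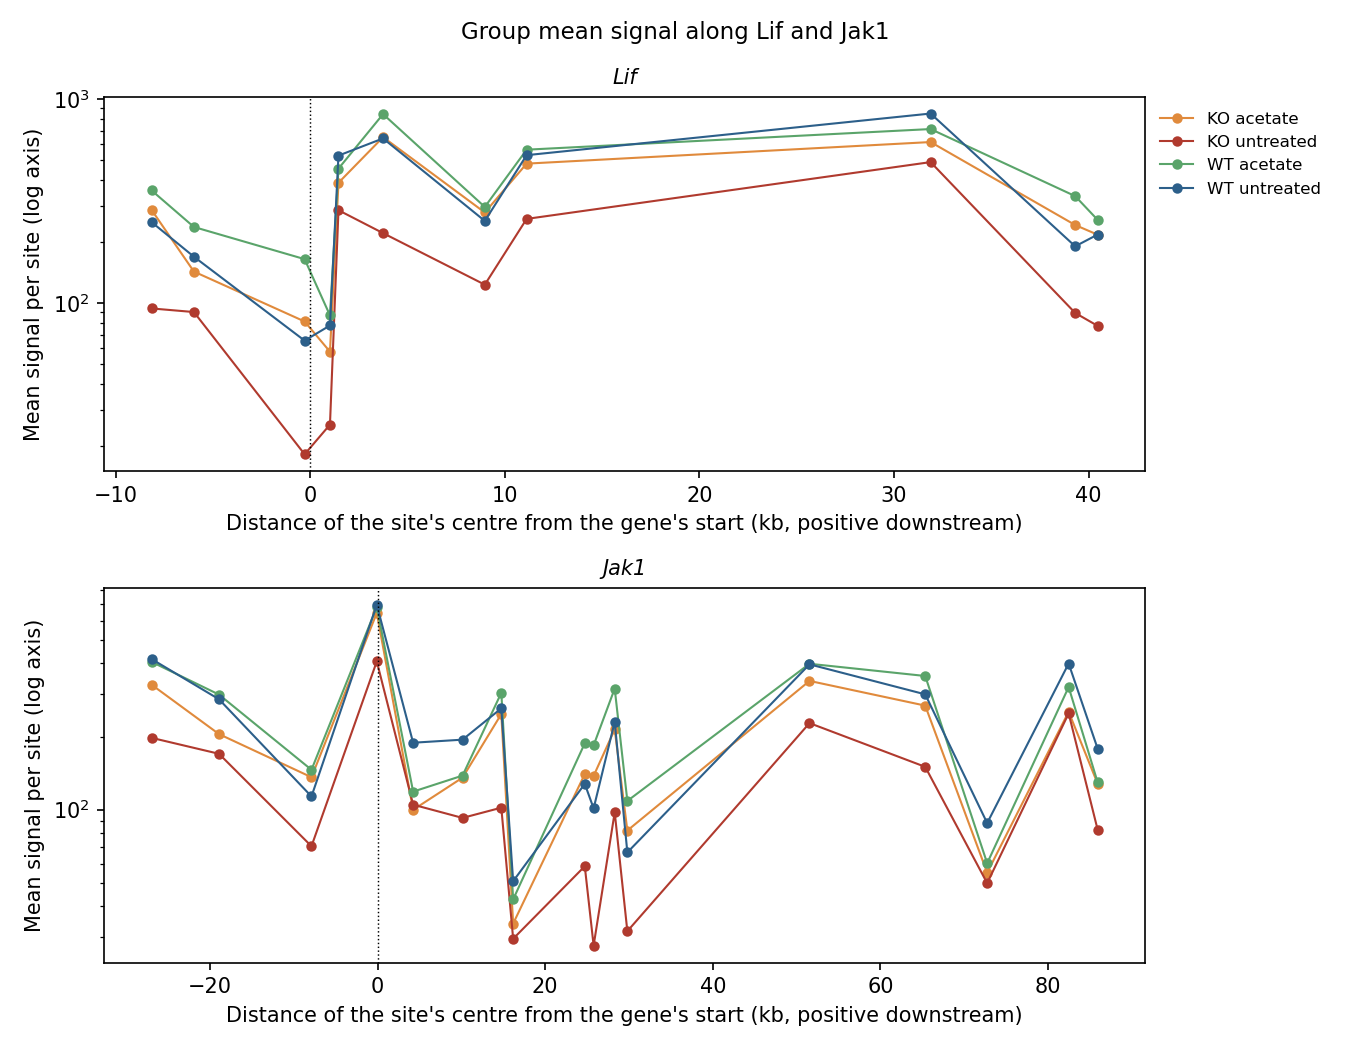
Mean signal of each group (vertical axis, log scale) at the 11 Lif sites (top) and the 17 Jak1 sites (bottom), placed by the distance of the site's centre from the gene's start in kb (positive downstream); the dotted line marks the start and lines join sites of a group only to guide the eye. On the deposited scale the KO untreated line is the lowest at every Lif site and at most Jak1 sites. At the site over the Jak1 start the other 3 groups lie close together.

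KO untreated had the lowest mean of the 4 groups at all 11 Lif sites on the deposited scale, as it had at most Jak1 sites. On that scale 89.6% of all sites were called lower in untreated KO than in untreated WT. With acetate in KO, 54.6% of all sites were called higher. Relative to all sites the Lif median was -0.24 in untreated KO against WT and 0.57 with acetate in KO. The cause of the order at Lif was not tested. The mean at the Lif start was 81.2 ± 8.16 in KO with acetate, 18.1 ± 6.45 in KO untreated, 164 ± 24.6 in WT with acetate and 65.4 ± 29.9 in WT untreated (SD). At the brightest Lif site, 11:4289345-4289545, the means were 616 ± 68.6 in KO with acetate, 491 ± 80.0 in KO untreated, 713 ± 106 in WT with acetate and 849 ± 139 in WT untreated. Along Jak1, the start had 646 ± 51.4 in KO with acetate, 408 ± 72.4 in KO untreated, 684 ± 95.0 in WT with acetate and 698 ± 125 in WT untreated. The intragenic Jak1 site at 4:101239342-101239542 had 138 ± 39.1 in KO with acetate, 27.6 ± 4.56 in KO untreated, 184 ± 26.9 in WT with acetate and 101 ± 37.4 in WT untreated.

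The fifth comparison asks whether acetate changed KO and WT cells differently, as the acetate difference in KO minus that in WT. As deposited 20 of the 76 sites had a higher interaction, against 19.5% of all sites, and none was lower, against 3.61%. The member median was 0.66 and that of all sites was 0.67. The 20 were 4 each at Lif, Jak1 and Socs2, 3 at Il6ra, 2 at Socs3 and 1 each at Il6st, Jak2 and Socs1. No site kept that call with another scaling: with cyclic loess none was higher and 2 were lower, against 7.36% of all sites lower, and with median-of-ratios factors and total signal none was higher. The 2 lower ones with cyclic loess were the Socs2 sites that rose in untreated KO, -1.55 at 10:95438655-95438855 (adjusted p = 0.00873) and -1.38 at 10:95367597-95367797 (adjusted p = 0.0262), whose deposited values of -0.75 and -0.59 were not called.

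The largest interaction at a member site was at Socs2 10:95418835-95419035, 1.93 ± 0.52 (adjusted p = 0.0120) and 1.14 with cyclic loess (adjusted p = 0.169). Signal there was 26.4 and 31.7 in KO with acetate, 42.8, 29.9 and 33.1 in KO untreated, 12.3 and 16.8 in WT given acetate and 91.2, 67.3 and 54.2 in WT untreated, so the WT groups lay apart and the KO groups overlapped. It alone of the 20 kept its call without each library in turn. The Lif site at 11:4261207-4261407 had 1.18 ± 0.31 (adjusted p = 0.0117) and 0.62 with cyclic loess (adjusted p = 0.254), and the Lif site at 11:4297930-4298130 had 1.25 ± 0.35 (adjusted p = 0.0147) and 0.55 (adjusted p = 0.549). The count of 20 came to 1 without KO untreated 1, 7 without KO untreated 2 and 24 without KO untreated 3. It came to 3 without WT untreated 1, 34 without WT untreated 2 and 30 without WT untreated 4. Without WT acetate 1 it was 13, without WT acetate 2 it was 2, without KO acetate 1 it was 1 and without KO acetate 3 it was 13. Over all sites the higher interactions ran from 126 without KO acetate 1 to 16081 without WT untreated 2, against 7728 with every library. No prefix holds all 4 groups. With the prefix as a term, 30 member sites had a higher interaction, against 28.8% of all sites, and none a lower one, against 4.11%.

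Sites of 4 further groups of the pathway were counted the same way in untreated KO against WT. Of all sites, 89.6% were lower and 9.07% higher as deposited, and 2.41% were lower and 9.35% higher with cyclic loess. Among other gp130 cytokines and receptors, 6 of 14 genes had a site, and 11 of 11 sites were lower as deposited and none with cyclic loess. Osm encodes oncostatin M and lies beside Lif, and its site at 11:4247286-4247486 had 149.7, 213 and 189 in KO and 513, 469 and 323 in WT, a fall of 1.22 ± 0.21 (adjusted p = 4.67e-07) that was -0.43 (adjusted p = 0.190) with cyclic loess. Among other Janus kinases and STAT factors, 8 of 9 genes had a site, and 36 of 38 sites were lower and 2 higher by the deposited values, with 0 lower and 2 higher with cyclic loess.

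Among other SOCS and negative regulators, 12 of 13 genes had a site, and 47 of 52 sites were lower and 4 higher by the deposited values, with 0 lower and 5 higher with cyclic loess. The smallest p there was a fall of 1.15 ± 0.21 at Pias2, of the PIAS family of STAT inhibitors (adjusted p = 3.57e-06), and it was -0.33 (adjusted p = 0.435) with cyclic loess. Among 16 STAT3 target genes, all with a site, 117 of 124 sites were lower and 7 higher by the deposited values, with 6 lower and 7 higher with cyclic loess. Batf encodes an AP-1 factor needed for Th17 cells, and its site at 12:85664336-85664536 had 114, 189 and 218 in KO and 45.0, 30.1 and 29.9 in WT. It rose by 2.25 ± 0.25 (adjusted p = 3.01e-13), or by 3.16 (adjusted p = 1.43e-07) with cyclic loess. The medians of the 4 groups as deposited were -0.89, -0.84, -0.81 and -0.89, beside -0.84 for all sites.

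With acetate in KO, 8 of 11 gp130 family sites were higher and none lower as deposited, 23 and 1 of 38 Janus kinase and STAT sites, 35 and 4 of 52 negative regulator sites, and 69 and 5 of 124 STAT3 target sites, beside 54.6% and 5.94% of all sites. With cyclic loess the sites higher and lower were 2 and 0 of the gp130 family, 2 and 4 of Janus kinases and STAT factors, 6 and 7 of negative regulators, and 19 and 16 of STAT3 targets, beside 11.5% and 16.7% of all sites. Stat4, which encodes the IL-12 and IL-23 responsive STAT, had 205 and 202 with acetate and 39.5, 52.3 and 75.7 without at 1:52040767-52040967, a rise of 1.90 ± 0.26 (adjusted p = 6.10e-10), or 1.20 (adjusted p = 0.000263) with cyclic loess. The same Stat4 site in WT had 212 and 235 with acetate and 136, 107 and 105 without, and rose by 0.95 ± 0.26 (adjusted p = 0.0125). Hif1a, which encodes an oxygen-sensing factor used by Th17 cells, had 194 and 172 with acetate and 52.1, 50.4 and 55.6 without in KO at 12:73904654-73904854, a rise of 1.78 ± 0.25 (adjusted p = 3.00e-09), or 1.08 (adjusted p = 0.000214) with cyclic loess. The sites of smallest p in the other groups were at Ctf1, a gp130 cytokine gene, with a rise of 1.29 ± 0.24 at 7:127717117-127717317 (adjusted p = 3.25e-06), and at Ptprc, which encodes the phosphatase CD45, with a rise of 2.17 ± 0.35 at 1:138154501-138154701 (adjusted p = 1.70e-07). In WT the calls were fewer, with none of 11 gp130 family sites, 1 higher of 38, 2 higher of 52, and 2 higher and 2 lower of 124. Of all sites 2.91% were higher and 3.02% lower in WT. The Batf site in WT had 129 and 116 with acetate and 45.0, 30.1 and 29.9 without, a rise of 1.80 ± 0.28 (adjusted p = 1.72e-06), and Ptprc rose by 0.88 ± 0.26 at 1:138159018-138159218 (adjusted p = 0.0227).

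With acetate in both genotypes, no site of the 4 groups was called in KO against WT, against 0.0227% of all sites. The interaction was higher at 3 of 11 gp130 family sites as deposited, 7 of 38 Janus kinase and STAT sites with 1 lower, 6 of 52 negative regulator sites, and 30 of 124 STAT3 target sites with 4 lower. Of all sites 19.5% had a higher interaction and 3.61% a lower one. With cyclic loess none was higher in any of the 4 groups, against 55 of all 39657 sites. Lower ones numbered 0, 2, 2 and 6, against 7.36% of all sites lower. The sites of smallest p of 3 of the groups were, as deposited, Il27ra, a receptor gene, at 1.23 ± 0.37 (adjusted p = 0.0201), Pias2 at 1.14 ± 0.34 (adjusted p = 0.0199) and the Batf site at -2.41 ± 0.39 (adjusted p = 2.31e-05). With cyclic loess these were 0.50 (adjusted p = 0.590), 0.49 (adjusted p = 0.721) and -3.17 (adjusted p = 0.000210).

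For each gene the pattern over the 10 libraries, taken as the mean log2 signal over its sites less the library's median, was set against that of 4628 other genes with at least 3 sites. The closest was Cog6 for Socs3, with a Pearson r of 0.989. It was Smndc1 for Lif at 0.975, Ensa for Jak1 at 0.974, Racgap1 for Socs2 at 0.969, Vps52 for Il6st at 0.966 and Rcbtb2 for Il6ra at 0.963. Cish was closest to Fam241a at 0.955, Socs1 to Kcnj8 at 0.943 and Jak2 to Smim3 at 0.929. The next ranks were Csk and Btg2 for Socs3, Snap29 and Thap12 for Lif, Irf2bp2 and Khdrbs1 for Jak1, Endod1 and Rnf216 for Socs2, and Slc39a11 and Bptf for Il6st. They were Ltb4r2 and Pitpnc1 for Il6ra, Agpat3 and Dnajc7 for Cish, Pacs2 and Rnf130 for Socs1, and Srebf2 and Gimap6 for Jak2. The 10 points of each correlation share their libraries and depth, and the highest of 4628 values is high by choice, so these are descriptions.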

How the data were processed

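ATAC-seq was measured in 10 libraries of mouse Th17 cells. The submitters' processing notes name the build GRCm38 and, without roles, BWA 0.7.16a with FastQC 0.11.5, deepTools 3.5.1 and DiffBind 3.6.1, Genrich, DESeq and DESeq2, and Picard 2.10.9. The deposited table holds signal per site, which by its common steps came out as whole reads (within 0.001 reads) divided by 1 factor per library. The sources used here do not say how the authors set the factors or chose the sites.

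Sites were assigned to genes with RefSeq's gene table on GRCm38.p6. Groups came from the labels, with column names matched to them; columns WT 4 and KO acetate 3 carry numbers that no title has, so they were placed by group only. log2(signal + 1) was fitted with limma 3.58.1 in R 4.3.3 (trend and robust, 4 group means over all 10 libraries), with p-values adjusted over all 39657 sites and calls at 0.05. The fold changes are on this scale and understate changes of faint sites. Plots and tables used Python 3.11.15, numpy 2.4.6, pandas 2.3.3 and matplotlib 3.10.9. The fit was tested on simulated data. No filter was applied.

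Values are given in every library for each gene's site of smallest p in untreated KO against WT and its brightest site, for any site higher in that comparison, and for the 3 called sites of smallest p in each other comparison. The pathway lists are named with their called site of smallest p, except for an item that is not reported here. Members and lists were chosen with earlier results of these data known. Alternatives were median-of-ratios factors, total signal in sites, cyclic loess, a pseudocount of 10, a first-quartile filter on signal, each library left out, 1 column prefix alone, the prefix as a term, a replicate block and a gene distance of 10 kb.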

Additional observations from a re-analysis of the deposited data

Results flagged for a closer look

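At 8 of the sites described, the acetate difference in KO differed from that in WT by the interaction term of the limma fit (adjusted p under 0.05) as deposited. None of the 8 was called with median-of-ratios factors, total signal or cyclic loess. Over all 39657 sites the higher interactions then numbered 79, 111 and 55, against 7728 as deposited. The values are the log2 interaction, KO minus WT.

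At Lif, the site inside the gene, 11:4261207, had 1.18, with 0.54 by median-of-ratios factors, 0.63 by total signal and 0.62 by cyclic loess. The distal Lif site, 11:4297930, had 1.25, with 0.61 by median-of-ratios factors, 0.70 by total signal and 0.55 by cyclic loess. At Il6ra, 3:89875907 had 0.90, with 0.26 by median-of-ratios factors, 0.35 by total signal and 0.27 by cyclic loess. The kinase sites were Jak1 4:101239342, which had 1.34, with 0.71 by median-of-ratios factors, 0.81 by total signal and 0.56 by cyclic loess, and Jak2 19:29279871, which had 1.49, with 0.89 by median-of-ratios factors, 0.98 by total signal and 0.71 by cyclic loess. The 3 Socs2 sites were 10:95416965, which had 0.90, with 0.25 by median-of-ratios factors, 0.35 by total signal and 0.32 by cyclic loess, 10:95418835, which had 1.93, with 1.28 by median-of-ratios factors, 1.38 by total signal and 1.14 by cyclic loess, and 10:95442432, which had 1.26, with 0.62 by median-of-ratios factors, 0.72 by total signal and 0.55 by cyclic loess. Only the Socs2 site 10:95418835 kept its call without each library in turn, and with WT acetate 1 at 4 reads its value rests on few reads.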

How the results depend on the processing

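With median-of-ratios factors, total signal and cyclic loess, the member sites called in untreated KO against WT numbered 8, 13 and 8, against 76 as deposited. With acetate against untreated in KO they numbered 24, 21 and 25, against 44, and for the interaction 1, 0 and 2, against 20. Counts over all 39657 sites fell as well. As deposited, acetate in KO gave 21657 higher and 2357 lower calls over all sites. With the 3 scalings, in that order, it gave 5265 and 6323, 6857 and 4991, and 4567 and 6625. The interaction gave 7728 higher and 1431 lower as deposited, then 79 and 2600, 111 and 2179, and 55 and 2919. In acetate against untreated in WT, 7 of 76 sites became 3 of the 62 left by the first-quartile filter and 4 of the 52 within 10 kb. With that filter 676 of 29743 sites were higher and 685 lower. Leaving out each library in turn gave 71 to 76 calls in untreated KO against WT, 0 to 0 in KO against WT with acetate, 26 to 46 in KO with acetate, 1 to 7 in WT with acetate and 1 to 34 for the interaction. The direction reversed in untreated KO against WT for Cish 9:107294361 (0.013 with median-of-ratios factors, 0.023 with cyclic loess), Cish 9:107312929 (0.17, and 0.078 with total signal, 0.016 with cyclic loess) and Socs3 11:117969189 (0.19 with median-of-ratios factors, 0.10 with total signal). It also reversed with median-of-ratios factors for Il6st 13:112463938 (0.0097), Jak1 4:101265215 (0.029) and Lif 11:4289345 (0.014), and with cyclic loess for Jak2 19:29210041 (0.048). With acetate in KO it reversed for Il6ra 3:89912756 (-0.10 with median-of-ratios factors, -0.00085 with total signal). The cause was not tested. The other changes of the 51 called values kept the direction, and leaving out libraries kept 452 calls and lost 58.

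The replicate number as a block, over the 8 libraries whose number matches a title, gave 76, 0 and 43 calls in untreated KO against WT, KO against WT with acetate and acetate in KO, 13 with acetate in WT (4 higher, 9 lower) and 44 for the interaction. Over all 39657 sites the block gave 3331 higher and 35337 lower in untreated KO against WT, and 20697 and 1520 with acetate in KO. It gave 2630 higher and 3570 lower of all sites with acetate in WT, and 15816 and 955 for the interaction. The same 8 libraries without the block, added after seeing the data, gave 7 in WT (2 higher, 5 lower) and 31 for the interaction. Over all sites they gave 1549 higher and 2269 lower in WT, and 9701 and 1030 for the interaction. The column prefix as a term, also added then, gave 29 calls with acetate in KO, and 10 of the 51 called values were no longer called with it. Same-numbered libraries correlated between -0.12 and 0.33 in their deviations over 9 pairs. Pairs with different numbers were not set beside them, so whether a number pairs libraries was not tested. The planned count tests were not run, because a second check of the step of 1 read passed in only some of the libraries; read numbers given here are those that the common step of each library implies. Groups of 2 libraries and 4 to 1404 reads per member site limit precision, and counting error alone is not the error between animals.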
